A study of Rattus norvegicus with 8 samples.

Results

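The genes described here are 8 known for their work in fat cells: Fabp4, Plin1, Cidec, Lipe, Pparg, Adipoq, Lep and Cfd. They were measured in whole hearts of aged rats, and were represented by every probe set annotated to exactly 1 of these symbols, which gave 10 probe sets of the 31042 that are not controls, for 8 of the 14217 genes named on the array. Plin1 and Lipe had 2 probe sets each and the other 6 genes 1 each. Of the 10 probe sets, 5 were bright enough to be tested, and these stood for 4 genes (Fabp4, Lipe, Pparg and Cfd). Plin1, Cidec, Adipoq and Lep, the genes most specific to fat cells, were too dim on these arrays to be tested.

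The rats were female Norway Brown animals of 18 to 22 months in 4 groups. The sham group kept its ovaries after a mock operation, and the Ovx group had them removed. The early estradiol group received a pellet with 0.5 mg of 17-β estradiol, releasing over 90 days, under the skin at the time of ovariectomy (start at week 0), and the late estradiol group received the same pellet 9 weeks after ovariectomy. Each group had 2 single-colour Affymetrix arrays, and each array held RNA of 3 hearts mixed in equal amounts, so that single animals cannot be told apart. The p-values below thus rest on how far 2 pools of a group lie apart, taken over all 4 groups. This spread may be technical in part, and it was drawn toward that of probe sets of like brightness. Values are log2 signals after quantile normalization unless another scale is named.

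Fat cells store triglyceride in a large droplet and release fatty acids when hormones call for fuel. Pparg, a nuclear receptor, switches on most genes of this programme, Plin1 and Cidec coat and fuse the droplet, and Lipe (hormone-sensitive lipase) cuts stored fat. Fabp4 carries the fatty acids through the cell, while Adipoq (adiponectin), Lep (leptin) and Cfd (adipsin, also complement factor D) are secreted into the blood. Fat depots lie on the surface of the heart, and estradiol is known to act on fat tissue elsewhere in the body. Outside fat, Fabp4 is also made by capillary endothelium and macrophages, and Lipe by heart muscle.

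The arrays were not equally bright, with median deposited signals of 13.3 to 33.9, and late estradiol replicate 1 was the dimmest of the 8. That array also had the highest Gapdh ratio of 3' over 5' control signal, which climbs as RNA degrades: 2.70, where the remaining 7 arrays had 1.26 to 1.65. The same ratio for actin did not single it out, at 3.01 there, 3.06 on Ovx replicate 2 and 1.71 to 2.75 on the other 6 arrays. The cardiomyocyte markers were bright on every array: 9 of the 10 listed genes were tested, with summed linear signals of 56449.9 to 60272. As a gauge of background, 19 probe sets for odorant and pheromone receptors, which the heart is not known for, were followed, and 0 of them passed the filter on dim probe sets. On each array, 4 to 6 of the 10 fat gene probe sets lay above the brightest of these receptors, which stood at log2 4.11 to 4.84.

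C/EBP factors bind the letters TTGCGCAA and looser forms of them (TTGCNNAA, which includes the first), and work beside Pparg in fat cell genes. The promoter windows of the member genes were searched to see what sequence they share. The windows, 300 bases each in RefSeq's GRCr8 build, ran from 250 bases before the gene start to 50 bases after it. They were available for 6 of the 8 genes, with 2 windows for Pparg and none for Fabp4 or Lipe. On either strand, TTGCNNAA was found in 4 of these 7 windows, belonging to Cidec, Lep, Plin1 and Pparg, and in 10.6% of 33469 windows of all genes. TTGCGCAA itself was found in the Lep window, and in 0.17% of all windows. Neither the estrogen response element (GGTCA, any 3 bases, TGACC) nor the repeat bound by Pparg with its partner (AGGTCA, any 1 base, AGGTCA) was found in any of the 7, against 0.0269% and 0.0538% of all windows. Letters this rare are seldom met in any 7 windows, so nothing is read from their absence. The 4 matches are shown with the matched letters in capitals, 20 bases on each side and the sequence read along the strand of the gene.
Lep, chr4:58626449-58626496, plus strand: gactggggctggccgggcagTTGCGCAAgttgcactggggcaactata
Cidec, chr4:148137297-148137344, minus strand: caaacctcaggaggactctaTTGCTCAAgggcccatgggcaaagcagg
Plin1, chr1:143086198-143086245, minus strand: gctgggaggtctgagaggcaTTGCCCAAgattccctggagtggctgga
Pparg, chr4:150154578-150154625, plus strand: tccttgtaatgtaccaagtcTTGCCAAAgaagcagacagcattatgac
Such a match is a description of letters and shows no binding. Of the 4 genes that hold it, Pparg was tested and the other 3 were among those too dim to test.

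The droplet genes gave no usable level. Plin1, which coats the fat droplet and guards it from lipases, read 1.85 and 4.32 in the sham arrays, 4.68 and 3.32 after ovariectomy, 3.39 and 2.77 with early estradiol and 0.86 and 3.15 with late estradiol on probe set 1369449_at. On its other probe set, 1392583_at, it read 0.47 and 1.55 in sham, 3.99 and 3.03 after ovariectomy, 3.94 and 3.67 with early and 4.16 and 2.67 with late estradiol. The sham arrays were the lowest on 1392583_at but not on 1369449_at, and on all but 1 array for 1369449_at and all 8 arrays for 1392583_at Plin1 stayed below the brightest odorant or pheromone receptor. Cidec, which helps droplets fuse into a single large one, read 1.15 and 0.69 in sham, 2.24 and 0.90 after ovariectomy, 2.87 and 0.12 with early estradiol and 2.52 and -0.02 with late estradiol. It lay between percentiles 2.43 and 24.4 of the arrays, and replicate 1 was above replicate 2 in each group. No fold change is given for Plin1 or Cidec, since both sides of each comparison lie at background.

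The 2 hormones were as dim. Adipoq, the hormone that only fat cells make in quantity, read 2.87 and 2.87 in sham, 1.06 and 4.16 after ovariectomy, 4.01 and 0.62 with early estradiol and 4.63 and 1.02 with late estradiol. Its replicates differed by up to 3.62 within a group, while the 4 group means differed by 0.55 at most. Lep, the satiety hormone, read 4.03 and 3.29 in sham, 1.65 and 3.34 after ovariectomy, 1.66 and 0.36 with early estradiol and 3.52 and -0.08 with late estradiol. Lep was below the brightest odorant or pheromone receptor on all 8 arrays, and Adipoq on 7 of 8. The mean of Lep was highest in sham, at 3.66 ± 0.52 (SD, n = 2), and lowest with early estradiol, at 1.01 ± 0.92 (SD, n = 2), but at this brightness a difference between arrays cannot be told from background. The signs of a fat cell that are most specific to it were thus not measurable in these heart pools. Of the 4 genes that were measured, Fabp4 and Lipe are also made outside fat, as stated above. From which cells the signal of any of the 4 came was not tested.

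**Figure D1:**
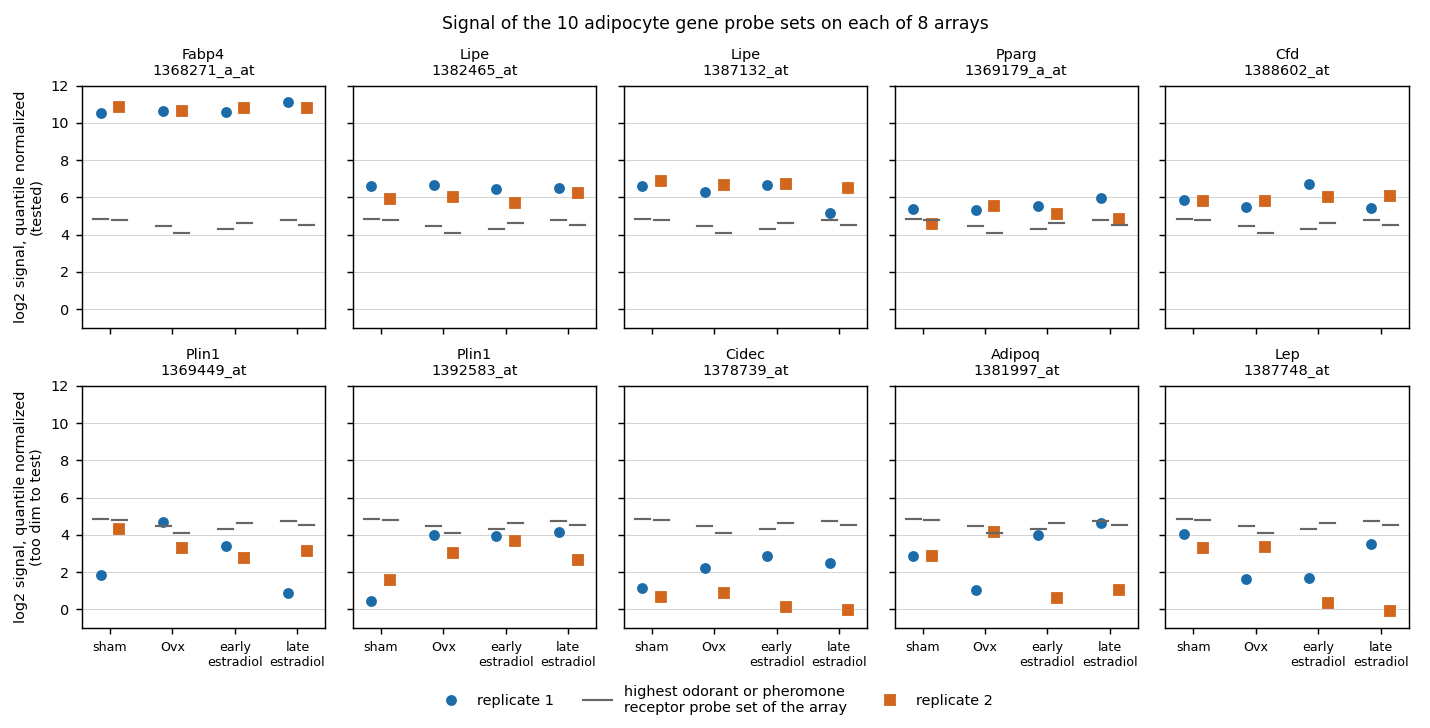
Log2 signal after quantile normalization (vertical axis) of each of the 10 probe sets in the 4 groups (horizontal axis), with replicate 1 as circles, replicate 2 as squares and short grey lines at the brightest odorant or pheromone receptor of each array. The 5 tested probe sets fill the upper row, where Fabp4 lies between 10.55 and 11.11 on every array; the 5 probe sets too dim to test fill the lower row and mostly lie at or below the grey lines.

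Fabp4, the fatty acid carrier, had the smallest spread of the 5 tested probe sets. On probe set 1368271_a_at it read 10.55 and 10.88 in sham, 10.63 and 10.62 after ovariectomy, 10.60 and 10.81 with early estradiol and 11.11 and 10.81 with late estradiol, which placed it between percentiles 98.7 and 99.1 of each array. All 8 arrays lay within 0.56, a 1.48-fold range, and the SD within groups was 0.17, against a median of 0.40 over all tested probe sets. The group means, from low to high, were those of Ovx (10.63), early estradiol (10.70), sham (10.71) and late estradiol (10.96). The first 3 of these lie within the SD of each other. The 2 late arrays lay above both Ovx arrays, by 0.33 ± 0.17 (standard error) or 1.26-fold, with an interval of -0.06 to 0.72 (limma adjusted p = 0.943). Leaving out late estradiol replicate 1 gave 0.19 and leaving out late estradiol replicate 2 gave 0.48. Without between-array normalization the value was -0.0059, in a setting where the median of all tested probe sets lay at -0.31, so that Fabp4 stood 0.30 above that median there and 0.32 above it after quantile normalization. The endothelial markers, of which 10 of 12 were tested, had summed linear signals of 2553 to 2566 in sham, 2398 to 2509 after ovariectomy, 2716 to 2894 with early and 2681 to 3453 with late estradiol, and none was at 0. The mesothelial markers, 5 of 8 tested, had 140.0 to 150.4, 136.2 to 148.6, 174.3 to 186.9 and 133.7 to 225.04 in the same order. The macrophage markers, 13 of 13 tested, had 1712 to 1815, 1690 to 6248, 2668 to 3334 and 1399 to 2197. For the macrophage markers the 2 late arrays lay on either side of both sham arrays. The part of any of these lists in the Fabp4 values was not tested, and in whole tissue more cells of a type and more RNA per cell cannot be told apart.

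Lipe, the lipase, was measured by a pair of probe sets that went different ways. Probe set 1387132_at read 6.59 and 6.88 in sham, 6.29 and 6.66 after ovariectomy, 6.66 and 6.73 with early estradiol and 5.15 and 6.50 with late estradiol. Its lowest value by far was late estradiol replicate 1, the dimmest array. Against early estradiol it was lower by 1.51 in replicate 1 and by 0.23 in replicate 2. The fitted difference was -0.87 ± 0.41, with an interval of -1.79 to 0.04 (limma adjusted p = 0.987), and it was -0.20 without that array. Against Ovx the late group stood at -0.65 ± 0.41 (limma adjusted p = 0.943), and at 0.024 without late estradiol replicate 1. Probe set 1382465_at read 6.61 and 5.90 in sham, 6.66 and 6.04 after ovariectomy, 6.43 and 5.70 with early estradiol and 6.49 and 6.22 with late estradiol. Here replicate 1 was the brighter array in every group, and late estradiol stood 0.0088 ± 0.39 from Ovx and 0.29 ± 0.39 above early estradiol, with intervals of -0.85 to 0.87 and -0.57 to 1.15. The 2 probe sets had opposite signs in all 4 comparisons, so no direction is given for the Lipe gene.

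Pparg, the receptor at the head of the fat cell programme, was dimmer but above the odorant and pheromone receptors on 7 of 8 arrays. On probe set 1369179_a_at it read 5.40 and 4.59 in sham, 5.32 and 5.54 after ovariectomy, 5.55 and 5.12 with early estradiol and 5.97 and 4.84 with late estradiol. The 2 arrays of the late group were the most uneven, 1.13 apart, and the 4 group means lay within 0.44 of each other, from 4.996 in sham to 5.43 after ovariectomy. The groups overlapped in all 4 comparisons. After ovariectomy Pparg stood 0.44 ± 0.49 above sham, with -0.08 in replicate 1 and 0.95 in replicate 2 (limma adjusted p = 1), and the value was 0.031 without sham replicate 2. Early estradiol stood at -0.10 ± 0.49 from Ovx, with an interval of -1.19 to 0.99, and late estradiol at -0.025 ± 0.49, with an interval of -1.12 to 1.07.

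Cfd, the secreted protease adipsin that starts the alternative complement pathway, was highest with early estradiol. On probe set 1388602_at it read 5.83 and 5.83 in sham, 5.49 and 5.82 after ovariectomy, 6.71 and 6.00 with early estradiol and 5.45 and 6.07 with late estradiol. Both early arrays lay above both Ovx arrays, and the late arrays lay on either side of the early replicate 2 value. Early estradiol stood 0.70 ± 0.37 above Ovx, or 1.63-fold, with an interval of -0.13 to 1.53 (limma adjusted p = 1). The distance was 1.23 in replicate 1 and 0.18 in replicate 2, and without early estradiol replicate 1 it was 0.35. Late estradiol stood 0.11 ± 0.37 from Ovx, and -0.60 ± 0.37 from early estradiol, with an interval of -1.43 to 0.24 (limma adjusted p = 0.987). The macrophage markers, all 13 of 13 tested, had summed linear signals of 1712 to 1815 in sham, 1690 to 6248 after ovariectomy, 2668 to 3334 with early and 1399 to 2197 with late estradiol. The mast cell and neutrophil markers, of which 4 of 8 were tested, had 71.9 to 81.0 in sham, 66.1 to 115.02 after ovariectomy, 159.1 to 429.4 with early and 76.4 to 82.8 with late estradiol. For the mast cell and neutrophil markers both early arrays lay above both Ovx arrays. For the macrophage markers the early arrays lay between the 2 Ovx arrays. None of the tested markers was at 0, and the part of either list in the Cfd values was not tested.

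Across the 5 tested probe sets, none passed in any of the 4 comparisons (limma, Benjamini-Hochberg over 18625 probe sets, adjusted p threshold 0.05), where 0% of all tested probe sets passed. None had an unadjusted p under 0.05 either, against 1.47% of all tested probe sets for Ovx and sham, 1.71% for early estradiol and Ovx, 4.36% for late estradiol and Ovx, and 3.87% for late and early estradiol. The moderated F test over the 4 groups gave an adjusted p of 1 for each of the 5. By the simpler measure of arrays that do not overlap, the Ovx arrays lay below both sham arrays for 1 of 5 probe sets (Cfd), where 14.1% of all tested probe sets did, and above them for 0, against 11%. The early arrays lay above both Ovx arrays for 2 of 5 (Lipe 1387132_at and Cfd), against 14.7%, and below for 0, against 12.3%. The late arrays lay above both Ovx arrays for 1 of 5 (Fabp4), against 15.7%, and below for 0, against 13.4%. Between late and early estradiol, 1 of 5 was higher (Fabp4) and 1 of 5 lower (Lipe 1387132_at), against 15.5% and 16.3%. With 5 probe sets such counts lie near the background. The median over the 4 genes was -0.13 for Ovx minus sham, 0.15 for early estradiol minus Ovx, 0.040 for late estradiol minus Ovx and -0.26 for late minus early estradiol, beside -0.020, 0.010, 0.00043 and -0.0077 over the 10450 tested genes. With 1 array left out, these medians ranged from -0.21 (without Ovx replicate 2) to -0.042 (without sham replicate 2), from 0.058 (without Ovx replicate 1) to 0.24 (without Ovx replicate 2), from -0.10 (without Ovx replicate 1) to 0.18 (without Ovx replicate 2) and from -0.48 (without early estradiol replicate 2) to -0.045 (without early estradiol replicate 1). With no filter on dim probe sets, which brings in the other 4 genes, they were -0.13, -0.087, -0.17 and -0.087. Lipe was represented in the main medians by 1387132_at alone. With the tested probe sets of a gene averaged, the median was -0.085 for Ovx minus sham. It was 0.023 for early estradiol minus Ovx and 0.040 for late estradiol minus Ovx. Each comparison shares arrays with at least 1 of the others, so the 4 are not independent.

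**Figure D2:**
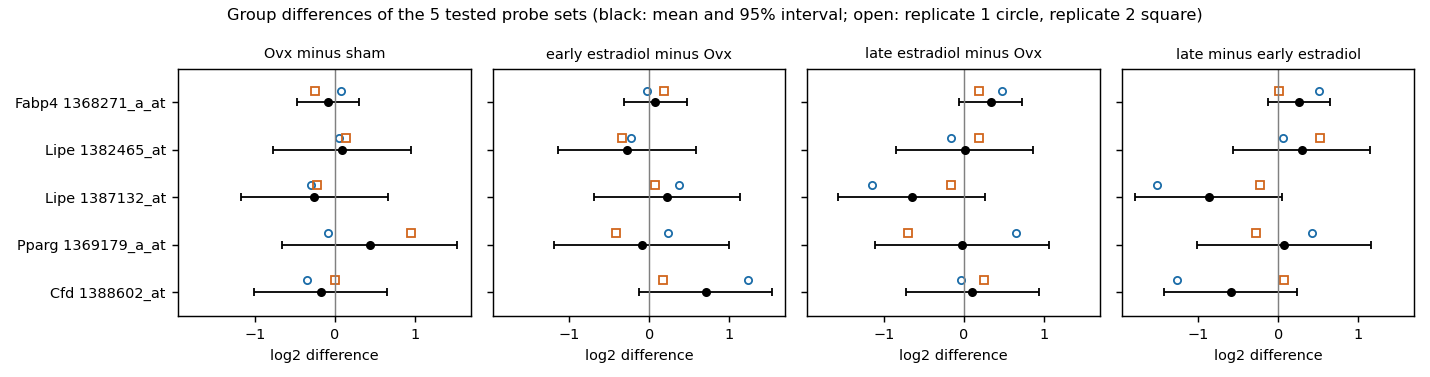
Log2 difference between group means (horizontal axis) of each tested probe set (vertical axis) in the 4 comparisons, as black points with 95% intervals from limma; open circles and squares are the differences of the replicate 1 and replicate 2 arrays. All 20 intervals cross 0, and replicate 1 and replicate 2 lie far apart for Cfd with early estradiol, at 1.23 and 0.18.

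The choice of scaling moved all probe sets, and the members with them. Without between-array normalization the median of all tested probe sets shifted to -0.31 for Ovx minus sham, 0.18 for early estradiol minus Ovx, -0.31 for late estradiol minus Ovx and -0.48 for late minus early estradiol. With median centring it lay at -0.17, 0.20, -0.058 and -0.25. Fabp4 with late estradiol stood at 0.33 against Ovx after quantile normalization, 0.24 after median centring and -0.0059 with neither. Less the median of all tested probe sets in each setting, these values were 0.32, 0.30 and 0.30. Against early estradiol the same gene stood at 0.26, -0.019 and -0.24, or 0.26, 0.23 and 0.23 relative to that median. Cfd with early estradiol against Ovx stood at 0.70, 0.83 and 0.81, or 0.68, 0.63 and 0.63 relative to the median. Of the 20 differences of the 5 probe sets, 1 turned its sign relative to the median, that of Lipe 1382465_at in late estradiol minus Ovx, which stood at -0.0030 after quantile normalization and 0.0045 in the other 2 settings.

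**Figure D3:**
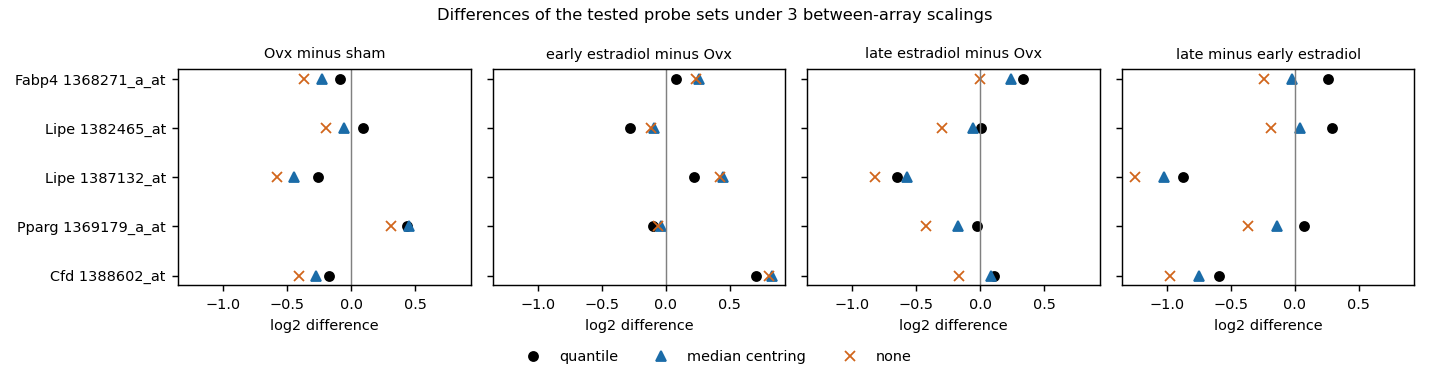
Log2 difference (horizontal axis) of each tested probe set (vertical axis) in the 4 comparisons after quantile normalization (circles), median centring (triangles) or no between-array normalization (crosses). For late estradiol the crosses lie to the left of the circles for all 5 probe sets, as does the median of all tested probe sets (-0.31 and -0.48), while for Cfd with early estradiol the 3 values lie between 0.70 and 0.83.

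Other genes of fat metabolism were followed in 6 lists of 88 genes, of which 82 were named on the array and 62 were tested. None of the 62 passed in any comparison by limma's test, and at an unadjusted p under 0.05 there were 0, 0, 4 and 2 of them in the 4 comparisons, beside 133, 157, 417 and 345 of all 10450 tested genes. The medians of the 6 lists lay between -0.26 and 0.17 in the 4 comparisons. Over the 62 genes the median was -0.11 for Ovx minus sham, with 41 genes lower and 21 higher, 0.046 for early estradiol minus Ovx (28 lower, 34 higher), -0.060 for late estradiol minus Ovx (35 and 27) and -0.12 for late minus early estradiol (44 and 18). Among all 10450 tested genes, 5508 were lower and 4942 higher for Ovx minus sham, and 5092 and 5358 for early estradiol minus Ovx. They were 5223 and 5227 for late estradiol minus Ovx, and 5316 and 5133 for late minus early estradiol.

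The droplet and lipolysis list had 15 of 18 genes tested, 9 of them lower with late estradiol than after ovariectomy at a median of -0.045. The list had 12 genes lower with late than with early estradiol, at a median of -0.15. Its genes of smallest p were Cidea, Plin3 and Aqp7. Cidea, a droplet protein of the same family as Cidec, read 9.49 and 9.74 in sham, 9.47 and 9.48 after ovariectomy, 9.13 and 9.10 with early estradiol and 8.94 and 8.99 with late estradiol. Sham, Ovx, early and late arrays thus lay in descending order, with no overlap between Ovx and either estradiol group. Of all tested probe sets, 12.3% had both early arrays below both Ovx arrays, and 13.4% had both late arrays below them. Cidea was named for its small p, so this order is a description only. Late estradiol stood at -0.51 ± 0.17 from Ovx (limma adjusted p = 0.943), and at -0.53 to -0.48 when any 1 array was left out. Aqp7, the channel through which glycerol leaves the cell, read 9.72 and 9.26 in sham, 9.42 and 9.00 after ovariectomy, 8.92 and 8.89 with early and 8.25 and 8.86 with late estradiol. Its late minus Ovx difference was -0.65 ± 0.25 (limma adjusted p = 0.943), and -0.35 without late estradiol replicate 1. Plin3, a droplet coat found in most tissues, stood at -0.57 ± 0.22 in late minus early estradiol (limma adjusted p = 0.987). Cideb, Adrb3 and Pde3b were too dim to test.

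The adipogenic regulators had 11 of 15 genes tested, with medians of -0.11, 0.094, 0.14 and 0.064 in the 4 comparisons in the order above. In late minus early estradiol 5 of the 11 lay lower. Srebf1, a transcription factor of lipid synthesis, read 4.37 and 6.14 in sham, 1.67 and 6.28 after ovariectomy, 6.00 and 6.78 with early estradiol and 6.52 and 6.70 with late estradiol. Its late minus Ovx difference of 2.64 ± 1.17 (limma adjusted p = 0.943) rested on Ovx replicate 1, without which it was 0.34, and its other tested probe set had the opposite sign. Ppargc1a, a coactivator of Pparg and of mitochondrial genes, stood at 0.66 ± 0.28 in late estradiol minus Ovx, at 0.30 without Ovx replicate 2 and at 1.01 without Ovx replicate 1. Ncor1, a corepressor, stood at 0.38 ± 0.23 in early estradiol minus Ovx. Rxra, Ppara, Ebf2 and Dlk1 were too dim to test.

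In the lipogenesis and esterification list, 13 of 17 genes were tested, and 11 of them lay lower with late than with early estradiol, at a median of -0.17. Of all 10450 tested genes, 5316 lay lower in late minus early estradiol. Lpin1, a phosphatase of triglyceride synthesis, stood at -0.52 ± 0.27 in that comparison, Acsl1, which activates fatty acids, at -0.24 ± 0.14 in Ovx minus sham, and Acly, which supplies acetyl-CoA, at -0.46 ± 0.28 in late estradiol minus Ovx. Lpin1 stood at -0.33 without early estradiol replicate 1, and Acly at -0.71 without Ovx replicate 1 and -0.22 without Ovx replicate 2. The fatty acid uptake list had 9 of 10 genes tested, 8 of them lower with late than with early estradiol, at a median of -0.11. Its genes of smallest p were Vldlr, a lipoprotein receptor, at -0.44 ± 0.27 in late estradiol minus Ovx, Fabp5, a fatty acid carrier related to Fabp4, at 0.64 ± 0.41 in Ovx minus sham, and Slc27a1, a fatty acid transporter, at -0.31 ± 0.21 in late minus early estradiol. Fabp5 read 10.24 on Ovx replicate 2 and 8.65 to 9.14 on the other 7 arrays, and its Ovx minus sham difference was -0.16 without that array and 1.43 without Ovx replicate 1. Of the 4 tested probe sets of Vldlr, 3 were lower in late estradiol minus Ovx. Vldlr stood at -0.17 without Ovx replicate 1 and -0.71 without Ovx replicate 2. Slc27a1 stood at -0.15 without late estradiol replicate 1 and -0.47 without late estradiol replicate 2.

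Of the adipokines and receptors, 8 of 16 genes were tested, 5 of them lower with late than with early estradiol. Adipor1 and Adipor2, the adiponectin receptors, were among the tested genes, while Lepr, the leptin receptor, was too dim. Adipor2 stood at -0.69 ± 0.44 in late estradiol minus Ovx, Insr, the insulin receptor, at -0.75 ± 0.46 and Adipor1 at -0.28 ± 0.18 in late minus early estradiol. Insr stood at -0.37 without early estradiol replicate 2 and -1.13 without early estradiol replicate 1, and Adipor1 at -0.16 without late estradiol replicate 1. Of the brown and beige fat genes, 6 of 12 were tested, 3 of them lower with late than with early estradiol. Ucp1, the uncoupling protein that defines brown fat, was too dim, as were Dio2, Elovl3, Zic1 and Tmem26. Cox7a1, a muscle form of a cytochrome oxidase subunit, stood at 0.55 ± 0.23 in late minus early estradiol and at 0.22 without late estradiol replicate 1. Without between-array normalization it was -0.0072, which is 0.47 above the median of all tested probe sets in that setting. Kcnk3, a potassium channel, stood at -0.59 ± 0.30 in Ovx minus sham, with its other tested probe set of opposite sign. It was -0.19 without Ovx replicate 1 and -0.99 without Ovx replicate 2. Cpt1b, which admits fatty acids into muscle mitochondria, stood at -0.23 ± 0.18 in late minus early estradiol, at -0.12 without late estradiol replicate 1 and at -0.35 without late estradiol replicate 2. The limma adjusted p-values of these list genes ran from 0.943 to 1.

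**Figure D4:**
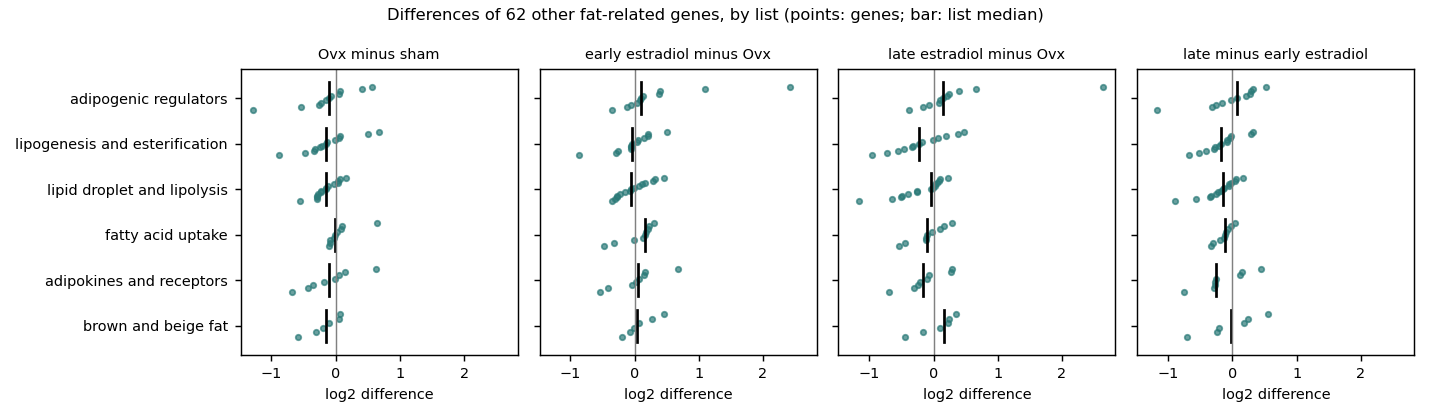
Log2 difference (horizontal axis) of the 62 tested genes of 6 lists (vertical axis) in the 4 comparisons, each gene as a point and each list's median as a bar. The medians lie between -0.26 and 0.17, and the point farthest from 0 is Srebf1, at 2.64 in late estradiol minus Ovx.

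Adipoq was too dim to serve as a reference, so the genes with the most similar course over the 8 arrays were sought for Fabp4, the brightest tested member. Among 10449 other genes, the 8 with the highest Pearson r were Exoc2 (0.957), a subunit of the exocyst, Atp5if1 (0.955), an inhibitor of the mitochondrial ATP synthase, Pde8a (0.951), a phosphodiesterase, Ptprb (0.949), a phosphatase of endothelial cells, Acp1 (0.948), a small phosphatase, Wt1 (0.947), an epicardial transcription factor, Selenoi (0.946), an enzyme of phospholipid synthesis, and Acat2 (0.946), a thiolase. After the mean of each replicate number was subtracted, their r with Fabp4 lay between 0.944 and 0.976. Fabp4 itself spans 0.56 over the 8 arrays and these genes 0.45 to 1.30, and with so many genes and 8 arrays these values are a description only. The other tested members did not follow Fabp4: r was 0.035 for Pparg, -0.40 for Cfd and -0.64 for Lipe 1387132_at. After the same subtraction r was 0.20 for Pparg, -0.42 for Cfd and -0.86 for Lipe 1387132_at. Late estradiol replicate 1 had both the lowest value of this Lipe probe set (5.15) and the highest of Fabp4 (11.11). The other Lipe probe set was not compared in this way.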

How the data were processed

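Total RNA from rat hearts was measured on 8 Affymetrix arrays. The authors deposited linear intensity values, and the submitters' processing notes name MAS5. Its version and scaling target: not given in the sources used here. Median deposited brightness differed between arrays, so log2 values of the 31042 non-control probe sets (57 control probe sets left out) were quantile normalized. Tests covered the 18625 probe sets whose mean log2 reached the 40th percentile (3.69). Names are those of the platform annotation; all 8 genes matched the RefSeq table of GRCr8 by Entrez number, and a gene with several tested probe sets was represented in lists by the brightest.

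Group means were compared with limma 3.58.1 in R 4.3.3 over all 8 arrays, with an intensity trend and 4 residual degrees of freedom. The variance of each probe set was drawn toward that of probe sets of like brightness, for the p-values and the intervals. Tests were two-sided, with Benjamini-Hochberg adjustment per comparison at 0.05. The script was tested on simulated data. Errors with ± are limma standard errors unless SD is named, and intervals are 95% intervals. The number of arrays limits the precision. Brightness does not rank different probe sets by abundance.

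The groups share replicate numbers 1 and 2. Subtracting replicate 1 from replicate 2 in each group gave differences that correlated in all 6 pairs of groups (r = 0.28 to 0.33 across probe sets), so the number was also fitted as a block. The members and lists were chosen with earlier results of these data known, and the odorant and pheromone receptors after the data were seen. From each list the 3 genes of smallest p over the 4 comparisons were named, each in its comparison of smallest p; for the pattern over arrays, the 8 genes of highest r. Alternatives were 2 other scalings, 32 added before the log2, no filter, no trend, the replicate block, averaging the probe sets of a gene, and leaving out each array.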

Additional observations from a re-analysis of the deposited data

How the results depend on the processing

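No fat gene passed the threshold in any alternative run. With the replicate block the probe sets called were 0 for Ovx minus sham, 0 for early estradiol minus Ovx, 1 (Col3a1) for late estradiol minus Ovx and 0 for late minus early estradiol, and the block changed no call of a fat gene. The same single probe set was called with 32 added before the log2 and with no filter (1 each). With 1 array left out, the calls ranged from 0 to 3 for Ovx minus sham, 0 to 65 for late estradiol minus Ovx and 0 to 100 for late minus early estradiol, the last 2 without late estradiol replicate 2. Precision is limited by having 2 arrays a group, and dim probe sets have no usable level. The causes were not tested.

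Without between-array normalization the member median was -0.30 for late estradiol minus Ovx and -0.67 for late minus early estradiol, and the median of the 62 list genes was -0.39, 0.18, -0.35 and -0.68 in the 4 comparisons; the median of all tested probe sets was -0.31, 0.18, -0.31 and -0.48. With median centring the list median was -0.25 for Ovx minus sham, 0.20 for early estradiol minus Ovx and -0.45 for late minus early estradiol, where all tested probe sets had -0.17, 0.20 and -0.25. With the probe sets of a gene averaged it was -0.16 for late estradiol minus Ovx and -0.22 for late minus early estradiol. With 1 array left out it ranged from -0.21 to 0.016 for Ovx minus sham and from -0.16 to 0.0018 for late estradiol minus Ovx.

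These 2 settings move all probe sets, so a sign that turns in them is no change of a gene relative to the others: relative to the median of all tested probe sets, 1 of 20 differences of the fat gene probe sets turned (Lipe 1382465_at in late estradiol minus Ovx, -0.0030 to 0.0045) and 0 of 18 of the named list genes. Before that shift is taken off, the sign without between-array normalization turned for Lipe 1382465_at in Ovx minus sham (-0.20), late estradiol minus Ovx (-0.30) and late minus early estradiol (-0.19), for Fabp4 in the last 2 (-0.0059 and -0.24), for Cfd in late estradiol minus Ovx (-0.17), and for Pparg (-0.36) and Cox7a1 (-0.0072) in late minus early estradiol. With median centring it turned for Lipe 1382465_at in Ovx minus sham (-0.060) and late estradiol minus Ovx (-0.054), and for Fabp4 (-0.019) and Pparg (-0.14) in late minus early estradiol. With 32 added, Pparg stood at 0.0098 in late estradiol minus Ovx.

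With 1 array left out, the sign turned within these ranges. In Ovx minus sham they were -0.25 to 0.082 for Fabp4, -0.26 to 0.45 for Lipe 1382465_at and -0.16 to 1.43 for Fabp5. In early estradiol minus Ovx they were -0.030 to 0.18 for Fabp4, -0.32 to 0.11 for Pparg and -0.65 to 0.082 for Lipe 1382465_at. In late estradiol minus Ovx they were -0.61 to 0.53 for Pparg, -0.30 to 0.33 for Lipe 1382465_at, -1.31 to 0.024 for Lipe 1387132_at and -0.20 to 0.43 for Cfd. In late minus early estradiol they were -0.51 to 0.63 for Pparg and -0.074 to 0.66 for Lipe 1382465_at.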
